A study of Mus musculus with 4 samples.

Results

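Type B intercalated cells are a minority cell of the connecting tubule and collecting duct, and 473 of 39654 barcoded nuclei (1.193%) from 4 mouse kidney libraries were taken here as type B. The nuclei were chosen by their own UMI counts (unique molecular identifiers, counted transcript molecules). A nucleus was taken when it had at most 15000 UMIs, at most 10% of them from mitochondrial genes, and at least 1 UMI of 2 or more of Slc26a4, Insrr, Slc4a9 and Hmx2. It also had to hold at most 1 UMI of Slc4a1, Aqp6 and Kit together, which mark type A intercalated cells, and at most 4 UMIs of the proximal tubule genes Slc5a12, Slc13a3, Slc7a13 and Slc22a6 together. The kidneys came from C57BL/6 mice at postnatal week 22, with 2 libraries labelled untreated and 2 labelled as treated with losartan, a drug that blocks the angiotensin II type 1 receptor. The labels name no other agent, allele or disease model shared by the groups, give no dose, length of treatment or sex, and do not say whether the libraries of a group come from separate animals, so p-values measure the spread between these libraries, which may be technical.

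Type B cells secrete bicarbonate into the urine. Pendrin, encoded by Slc26a4, exchanges chloride for bicarbonate at the apical face, and a vacuolar proton pump at the basal face returns acid to the blood. Type A cells have the opposite polarity: they secrete acid through an apical proton pump and return bicarbonate through the anion exchanger encoded by Slc4a1. The forkhead factor Foxi1 is needed for both kinds, and principal cells, their neighbours in the same duct, take up sodium and water.

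The libraries held 129, 74, 135 and 135 type B nuclei in the order untreated 1, untreated 2, losartan 1 and losartan 2, of 9326, 10132, 9854 and 10342 barcodes. Library totals ran from 42290414 to 59078762 UMIs, and the lowest barcode in any library had 1839 UMIs. Median depth of the type B nuclei was 3597, 5147.5, 3787 and 3685 UMIs in that order, so the untreated library 2 held the fewest and the deepest. In all, 149 barcode sequences occurred in more than 1 library, and none was a type B nucleus in more than 1. No doublet caller was run, and the limits on UMIs and on type A and proximal tubule transcripts were the guard against mixed droplets.

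The 4 selection genes describe the nuclei and are no result. Slc4a9, a basolateral anion exchanger known as AE4, had a UMI in 96.41% of the 473 nuclei, and Slc26a4 in 96.19%. Insrr, a receptor that senses alkaline pH, had a UMI in 83.72%, and the homeobox factor Hmx2 in 45.24%. All 4 genes were found in 196 nuclei, 3 in 183 and only 2 in 94, and 438 nuclei held both Slc26a4 and Slc4a9. At the limits of the rule, 58 of the nuclei had 1 type A UMI and 109 nuclei were left out for 2 or more of them, 25 of these with exactly 2. A further 22 nuclei stood at exactly 4 proximal tubule UMIs, 17 nuclei were just outside with 5, and 1862 nuclei had UMIs of only 1 of the 4 selection genes. With each nucleus thinned to 2000 UMIs, Slc26a4 was found in 88.71%, 86.49%, 91.85% and 85.19% of type B nuclei against 2.57%, 1.416%, 3.635% and 3.036% of the other nuclei. The thinned shares were taken over nuclei that had at least 2000 UMIs and met the UMI and mitochondrial limits, which kept 124, 74, 135 and 135 type B and 8365, 9466, 9298 and 9716 other nuclei. In the same nuclei before thinning, the type B shares for Slc26a4 were 95.16%, 98.65%, 97.78% and 94.81%.

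Markers of other cells were checked in the same nuclei. Slc4a1 gave 1 UMI in all type B nuclei together, and Slc26a7, an anion exchanger of type A cells that the rule did not use, also gave 1. Adgrf5, a type A marker that the rule also did not use, had unscaled levels of 77.89, 158.3, 66.01 and 68.37 CPM in type B (CPM are UMIs scaled to a common library total) and 75.97, 107.4, 47.64 and 70.31 CPM in all other nuclei. The rule itself limits Slc4a1, Aqp6 and Kit, so their low levels are no check of the label. The summed level of Slc4a1, Aqp6, Kit, Adgrf5 and Slc26a7 was 91.16 to 180.3 CPM in type B and 3040 to 4683 CPM in type A nuclei. UMIs of genes of other cells were widespread: 397 of the 473 nuclei had 3 or more UMIs from marker genes of principal cells, thick limb, distal convoluted tubule, podocytes, endothelium, fibroblasts or leukocytes. Slc12a3, the thiazide-sensitive cotransporter of the distal convoluted tubule, was found after thinning in 31.45%, 14.86%, 28.89% and 25.19% of type B nuclei, close to its 32.96%, 23.48%, 26.75% and 26.37% in all other nuclei. Before thinning these Slc12a3 shares were 39.19 to 43.55% in type B and 36.94 to 46.46% in the others.

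The shares of nuclei came first among the comparisons with treatment. Type B nuclei made up 1.383%, 0.7304%, 1.37% and 1.305% of barcodes in untreated 1, untreated 2, losartan 1 and losartan 2, with 95% Clopper-Pearson intervals of 1.156 to 1.641%, 0.5739 to 0.916%, 1.15 to 1.62% and 1.096 to 1.543%. These intervals cover counting error only. Untreated library 2 stood below the other 3, whose intervals overlapped one another. The means were 1.057% ± 0.4616 untreated and 1.338% ± 0.04571 with losartan (SD, n = 2 each; exact two-sided permutation test, p = 1), a difference of 0.2809 percentage points that became -0.04555 without untreated library 2. An exact test of 2 libraries against 2 cannot give a p below 0.3333.

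That share also depended on the proximal tubule limit of the rule. The proximal tubule limit removed 27 and 8 nuclei from the untreated type B sets and 69 and 46 from the losartan sets. Without that limit the type B sets held 156, 82, 204 and 181 nuclei, or 1.673%, 0.8093%, 2.07% and 1.75% of barcodes. When barcodes above the limit were taken out of the denominator, the shares were 2.017%, 0.9843%, 3.281% and 2.493%. In both of these counts the losartan libraries were above both untreated libraries, and the part of proximal tubule RNA in the share was not tested.

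Type A nuclei were counted with a mirrored rule: the same UMI, mitochondrial and proximal tubule limits, at least 2 of Slc4a1, Aqp6 and Kit, and at most 1 UMI of the 4 type B genes. They numbered 96, 88, 29 and 37, or 1.029%, 0.8685%, 0.2943% and 0.3578% of barcodes. The losartan libraries did not overlap the untreated ones, with means of 0.949% ± 0.1137 untreated and 0.326% ± 0.04488 with losartan (SD, n = 2 each; exact permutation test, p = 0.3333, the smallest possible). Type B nuclei therefore made up 57.33% and 45.68% of intercalated nuclei in the untreated libraries and 82.32% and 78.49% in the losartan libraries. The means were 51.51% ± 8.241 and 80.4% ± 2.707 (SD, n = 2 each; exact permutation test, p = 0.3333). The nearest pair of libraries, untreated 1 and losartan 2, had intervals of 50.59 to 63.88% and 71.59 to 84.38%. They did not overlap, but they cover counting error over nuclei only. The spread between libraries of a group is not in them, and the 2 untreated libraries stood at 57.33% and 45.68%. With a wider type A rule, at least 2 of Slc4a1, Aqp6, Kit, Adgrf5 and Slc26a7, the type B shares were 39.45%, 25.17%, 65.85% and 53.36%, so the losartan libraries stayed above the untreated ones. The wider rule took 606 nuclei in place of 250, and whether the added nuclei are all type A was not tested. A type A cell with fewer transcripts of the marker genes would not meet either rule, so fewer type A cells and lower marker transcripts per cell cannot be told apart here. Both type A rules also left out nuclei above the proximal tubule limit. Barcodes within the UMI, mitochondrial and proximal tubule limits numbered 6396, 7518, 4115 and 5415, in the order of libraries above. The part of the proximal tubule limit in the type A shares was not tested.

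**Figure D1:**
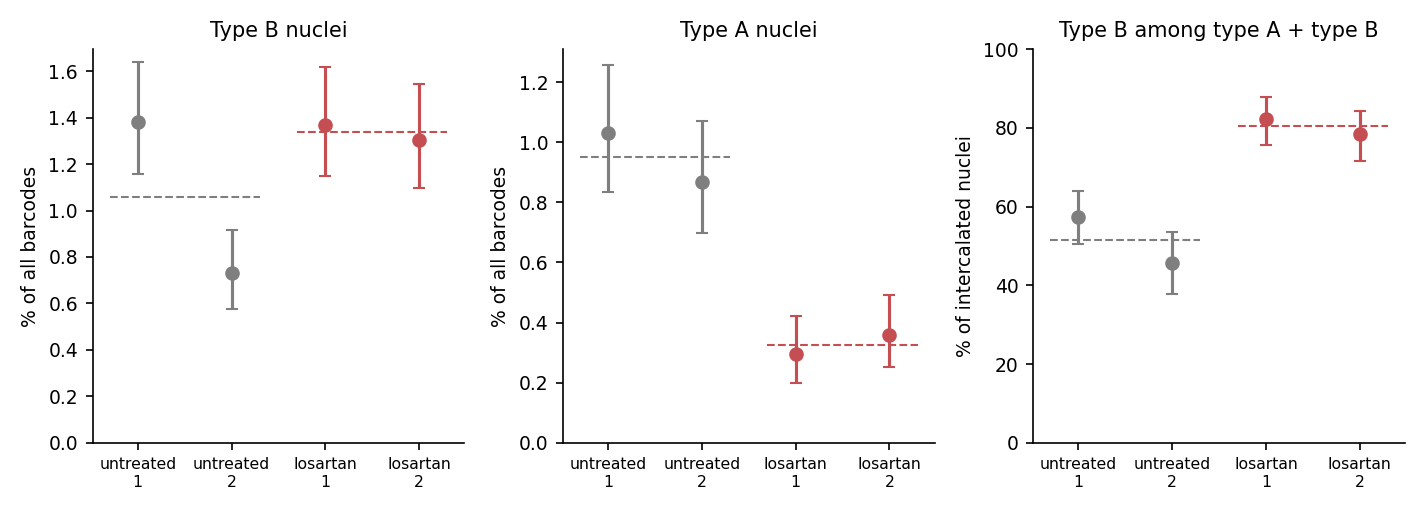
Share of type B nuclei among all barcodes (left), of type A nuclei among all barcodes (middle) and of type B among type A plus type B nuclei (right), in percent, for each of the 4 libraries. Points are libraries, bars are 95% Clopper-Pearson intervals and dashed lines are group means. The type B share is lowest in untreated 2 (0.7304%), the type A share is lower in both losartan libraries (0.2943% and 0.3578%), and type B makes up 82.32% and 78.49% of intercalated nuclei there.

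Type B nuclei were next compared with type A nuclei of the same libraries, the cell type most like them. UMIs were summed per library and type, and edgeR's quasi-likelihood test was run with library as a block. Of 7105 genes tested, 748 (10.5%) passed an adjusted p of 0.05, written below as called: 360 (5.07%) were higher and 388 (5.46%) lower in type B. Levels are CPM scaled by edgeR's TMM factors, in the order untreated 1, untreated 2, losartan 1 and losartan 2, differences are log2 of type B over type A, and the selection genes of both types were left out. Genes that vary along with the selection genes are not independent of how the nuclei were chosen.

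Lsamp, Kcnq3 and Tmem163 were among the 12 genes with the largest difference on the side of type B, among called genes that differed in the same direction in 4 of 4 libraries and were not of low level in the higher type. Lsamp, an adhesion protein of the limbic system on chromosome 16 (39984361-42181679, plus strand, GRCm38), stood at 6358, 6177, 7783 and 5499 CPM in type B and at 40.3, 35.99, 113.7 and 88.07 CPM in type A (log2 6.77, SE 0.205, adjusted p 2.09e-16). Every type B library was far above every type A library. Kcnq3, a subunit of the neuronal M-type potassium channel on chromosome 15 (65986387-66286642, minus strand), had 514 UMIs in type B and none in type A. That difference was at least 78.75-fold when the type A sum was set to the 3 counts that a count of 0 allows. The Kcnq3 UMIs came from 30 of 129, 17 of 74, 17 of 135 and 17 of 135 type B nuclei. In that order, the 5 richest nuclei held 40%, 65.29%, 71.23% and 64.57% of them. Tmem163, a zinc transporter, stood at 799.2 to 1084 CPM in type B and 13.55 to 94.78 CPM in type A (log2 4.54, adjusted p 3.58e-12).

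Other leading genes were found at low level or not at all in type A. Chl1, a neural adhesion molecule, stood at 149.6 to 212.9 CPM against at most 6.775 CPM (log2 5.68, adjusted p 6.30e-10), and Lrp1b, a large lipoprotein receptor relative, at 108.4 to 168.8 CPM against at most 6.2 CPM (log2 5.71, adjusted p 1.51e-08). The sulfotransferase gene Sult2a3 had log2 5.71, the calcium sensor of vesicle release Syt7 had 4.47, Fam65b had 4.47 and the pyrophosphate transporter Ank had 4.14, all called and higher in 4 of 4 libraries. Rp1, named for a photoreceptor protein, was also higher (log2 4.46, adjusted p 4.78e-10). Its symbol is carried by more than 1 identifier in the files, and the value is that of ENSMUSG00000025900. The noncoding genes Gm37381 and Gm43376 completed the 12 leading genes. Gm37381 had no UMI in type A and was at least 23.44-fold higher in type B.

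The genes lower in type B were led by Slc26a7, the anion exchanger of type A cells on chromosome 4 (14502430-14621805, minus strand). It stood at 0, 0, 0 and 1.918 CPM in type B and at 217, 451.2, 587.6 and 521.7 CPM in type A (log2 -9.02, SE 0.370, adjusted p 3.36e-14). Dmrt2, a transcription factor of type A cells, stood at 0 to 4.748 CPM against 142.3 to 293.8 CPM (log2 -6.40, adjusted p 1.04e-10). Its neighbour 2610016A17Rik, an antisense-type RNA gene just upstream on the opposite strand of chromosome 19 (25671134-25672253), had no UMI in type B and was at least 46.41-fold higher in type A. Both genes of this pair were absent or nearly absent from type B nuclei.

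Cadps, a factor for dense-core vesicle release, stood at 135.6 to 494.6 CPM in type A and at no more than 6.024 CPM in type B (log2 -6.87, adjusted p 4.31e-11). Pdlim3, a cytoskeletal adaptor, had log2 -5.36, the adhesion gene Dscaml1 -5.05, Slc35f1 -4.93, the progesterone receptor gene Pgr -4.41 and the adrenergic receptor gene Adra1a -3.96, and all were lower in type B in 4 of 4 libraries. Pof1b stood at 0 to 2.008 CPM in type B and 33.87 to 69.2 CPM in type A (log2 -6.01), and the noncoding genes Gm9871 (log2 -5.62) and RP23-274K7.1 completed this side.

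**Figure D2:**
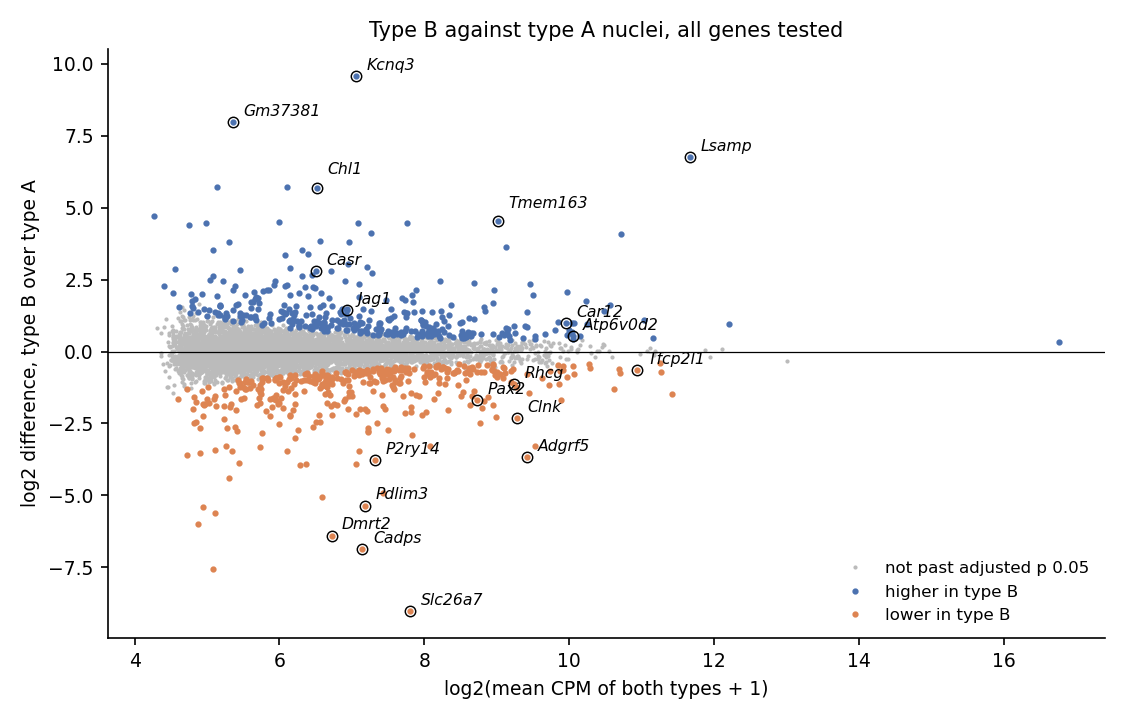
Each point is 1 of the 7105 genes tested. The horizontal axis is log2 of the mean CPM of both types plus 1, and the vertical axis is the log2 difference of type B over type A; blue genes were called higher and orange genes called lower in type B, and circles mark genes named in the text. Lsamp combines a high level with a log2 difference of 6.77, and Slc26a7 lies lowest at -9.02.

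The acid-base machinery differed in part. Of 24 genes of the vacuolar proton pump and its helpers, 21 were tested. In type B 7 were higher and 1 lower, beside 5.07% and 5.46% of all genes tested. Their median log2 was 0.362 beside -0.001 over all genes tested. Atp6v0d2 stood at 1233, 1166, 1410 and 1201 CPM in type B and 821.4, 938.4, 1005 and 691 CPM in type A (log2 0.54, adjusted p 0.00516). Atp6v1g3 had log2 0.60, Atp6v1c2 0.44, Atp6v1b2 0.99, Atp6v1c1 0.92, Atp6v0d1 0.88 and Atp6ap2 0.94. All 7 encode subunits or an accessory protein of the pump. Ncoa7, which binds the pump, was lower (log2 -0.57, adjusted p 0.00479). DESeq2 called 0 of the 21 (unadjusted p under 0.05 in 7 higher and 1 lower), and with the wider type A rule edgeR called 14 higher and 0 lower.

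Subunits on which acid secretion is known to depend did not pass the test: Atp6v1b1 had log2 0.05 and Atp6v0a4 had -0.05. Of the anion and bicarbonate transporters outside the selection rules, 16 of 19 were tested. Among them 1 was higher (the chloride-proton exchanger Clcn3, log2 0.81) and 1 lower (Slc26a7), beside 5.07% and 5.46% of all genes tested. Slc4a8, a sodium-dependent exchanger that has been placed in type B cells, had 21 UMIs in all type B nuclei. It stood at 14.06, 18.99, 3.905 and 7.672 CPM in type B and at 37.2, 30.45, 37.91 and 27.1 CPM in type A (log2 -1.45, adjusted p 0.0508), so type B was lower in 4 of 4 libraries with a p just past the threshold. After thinning, Slc4a8 was found in 3, 1, 0 and 1 type B nuclei (2.419%, 1.351%, 0% and 0.7407%) against 2.654%, 2.662%, 1.893% and 1.945% of the other nuclei. Before thinning the shares were 4.839%, 8.108%, 1.481% and 2.963% in type B and 4.71%, 5.462%, 4.076% and 3.716% in the others. Type B was thus above the other nuclei in both untreated libraries and below them in both losartan libraries before thinning.

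Of 7 tested genes for carbonic anhydrases, ammonia and related transport, 2 were higher and 2 lower, beside 5.07% and 5.46% of all genes. Car12, a membrane carbonic anhydrase, stood at 1528, 1367, 1265 and 1086 CPM in type B against 616.9, 739.1, 739.2 and 575.9 CPM in type A (log2 0.98, adjusted p 8.71e-06). The urate transporter gene Slc2a9 was also higher (log2 1.60). Both Rhesus-family ammonia channels were lower: Rhbg stood at 38.15 to 59.35 CPM against 94.85 to 204.6 CPM (log2 -1.84), and Rhcg at 329.3 to 436.8 CPM against 578.1 to 1152 CPM (log2 -1.12). The ranges of the types did not overlap for Car12, Rhbg or Rhcg.

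Among 18 tested transcription factors of the intercalated and collecting duct lineage, 1 was higher and 8 lower in type B. Over all genes tested these shares were 5.07% and 5.46%. Lhx1 was higher (log2 1.88, adjusted p 0.000906). Pax2 stood at 185.5 to 200.8 CPM against 406.1 to 819.8 CPM (log2 -1.69, adjusted p 7.03e-08). Klf5 (log2 -3.54), Ehf (-1.73), Gata3 (-0.96), Tfcp2l1 (-0.65), Grhl2 (-0.65), Pax8 (-0.65) and Dmrt2 made up the rest of the genes that were lower. Foxi1 stood at 62.25, 273, 89.82 and 70.96 CPM in type B against 54.2 to 105.2 CPM in type A and was not called. Untreated library 2 was the high one, where 5 nuclei held 56.52% of the Foxi1 UMIs and 1 nucleus held 40 of them. With the wider type A rule the same list gave 7 higher and 3 lower, so its balance depended on how type A nuclei were chosen.

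Some receptor and Notch pathway genes were called, in both directions. Notch signalling between neighbouring cells sets the choice between principal and intercalated fate. Of 10 tested Notch genes 3 were called, beside 10.5% of all genes tested: the ligand gene Jag1 (134.3 to 210.9 CPM against 35.99 to 132.7 CPM, log2 1.44) and the coactivator gene Maml3 (log2 0.65) were higher in type B, and the target gene Hes1 was lower (47.48 to 74.3 CPM against 101.6 to 132.9 CPM, log2 -0.85). Of 20 tested receptor and hormone genes, 5 were higher and 4 lower, beside 5.07% and 5.46% of all genes. The calcium-sensing receptor gene Casr stood at 124.5, 187.5, 177.7 and 140 CPM against 18.6, 24.91, 9.478 and 33.87 CPM (log2 2.79, adjusted p 2.74e-07), so every type B library was above every type A library. The secretin receptor gene Sctr (log2 1.74), the prostaglandin receptor gene Ptger3 (1.08), the oxoglutarate receptor gene Oxgr1 (0.80) and Atp6ap2, the prorenin receptor, were also higher. The UDP-glucose receptor gene P2ry14 was lower (9.496 to 34.14 CPM against 189.6 to 365.4 CPM, log2 -3.77), as were the adhesion receptor gene Adgrf5 (-3.67), Pde1c (-0.91) and the insulin receptor gene Insr (-0.52).

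Few defence genes could be tested, and 5.46% of all genes tested were lower in type B. Only 2 of 18 innate defence genes passed the filter on low counts, P2ry14 and the defensin gene Defb1. Both were lower in type B, but the filter also keeps a gene that is high enough in type A alone. The direction of the pair is therefore no result about the list. Defb1 stood at 125.8 to 216.7 CPM in type B and 559.2 to 1146 CPM in type A (log2 -2.29, adjusted p 3.69e-09). Of 5 tested interferon-stimulated genes, only Apobec3 was called, as lower (log2 -2.65, adjusted p 3.91e-09), and the median log2 was -0.241. Clnk, an immune signalling adaptor carried in the list of type A markers, was also lower (log2 -2.32), while Hepacam2 from that list was higher (log2 1.15). Among 28 respiratory chain genes, none was higher and 2 were lower, beside 5.07% and 5.46% of all genes tested. Their median log2 was -0.180.

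Distal tubule genes also stood higher in the type B sums. Of the tested markers, 7 of 9 for the distal convoluted tubule, 5 of 7 for the thick limb and 4 of 8 for the connecting tubule were higher and none lower. Over all genes tested 5.07% were higher and 5.46% lower. Slc12a3 stood at 2026, 688.4, 976.3 and 1162 CPM in type B and at 1020, 138.4, 909.8 and 1219 CPM in type A (log2 0.76), and Slc8a1, the sodium-calcium exchanger of the connecting tubule, at 4095, 1458, 1386 and 1189 CPM against 332.2 to 1619 CPM (log2 1.40). Few type B nuclei carried these sums. The 5 richest held 66.3%, 91.03%, 67.6% and 79.7% of the Slc12a3 UMIs and 65.87%, 88.6%, 57.75% and 72.1% of those of Slc8a1. When the 10% of type B nuclei with the largest share of UMIs from other cell types were left out, 1 distal convoluted tubule marker was higher and 2 lower, 1 thick limb marker was higher and 1 lower, and 1 connecting tubule marker was higher. The nuclei left out were picked by a set of genes that includes distal convoluted tubule and thick limb markers, and only on the type B side, so fewer calls of those markers follow from the choice itself. In the same fit 651 of all 748 calls were kept.

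**Figure D3:**
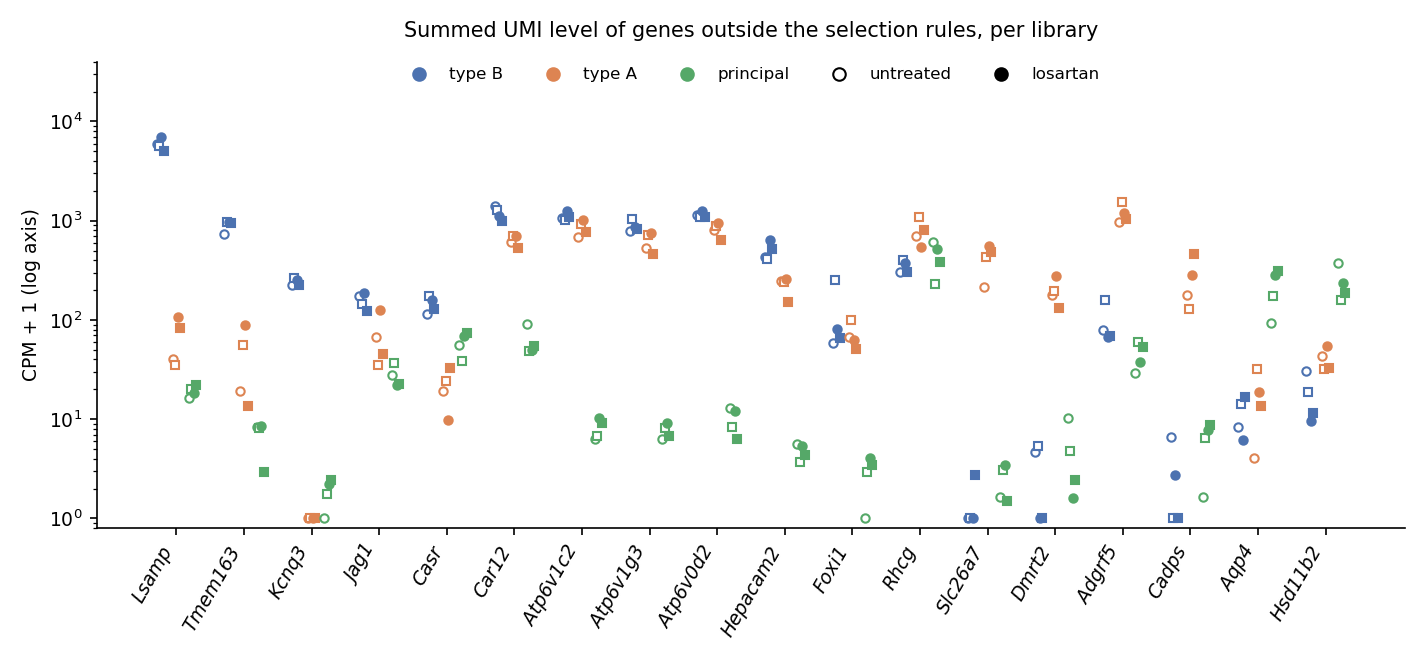
CPM plus 1, on a log axis, of 18 genes that the selection rules did not use, summed over type B (blue), type A (orange) and principal cell nuclei (green) of each library. Open symbols are untreated and filled symbols losartan libraries; circles are replicate 1 and squares replicate 2. Lsamp, Tmem163 and Kcnq3 are high only in the blue symbols, the Atp6 genes are high in blue and orange, and Slc26a7, Dmrt2 and Cadps are high only in orange.

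Against principal cells the type B nuclei differed in more genes. Principal nuclei, 364, 1402, 397 and 485 in number, had at least 2 of Aqp2, Aqp3, Scnn1g and Fxyd4 and passed the same limits. Before thinning, Aqp2 was found in 8.787%, 48.26%, 12.42% and 20.84% of all nuclei outside type B. After thinning these shares were 5.607%, 30.25%, 6.958% and 12.13%. In the type B nuclei of untreated 2 Aqp2 was found in 44.59% before and 24.32% after thinning. How many of the 1402 nuclei of untreated 2 are principal cells was not tested. Of 10233 genes tested, 1928 (18.8%) were called: 863 (8.43%) were higher and 1065 (10.4%) lower in type B. Lsamp again led by level (5148 to 7347 CPM against 15.33 to 21.77 CPM, log2 8.31), and Sult2a3 had no UMI in principal nuclei, which made it at least 239.3-fold higher in type B. Trpc5, a cation channel gene (136.9 to 165.9 CPM against at most 1.333 CPM, log2 7.77), Kcnq3 (8.10), Tmem163 (7.25), Rp1 (8.86), Aldh1l2 (7.68), Hepacam2 (7.10), Gm37381 (7.70) and Gm12121 (7.38) were also among the 12 genes named by the same rule.

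Most tested genes of the proton pump were higher in type B than in principal nuclei. Of 21 tested pump genes 15 were higher and 0 lower, beside 8.43% and 10.4% of all genes tested. Their median log2 was 1.57 beside -0.014 over all genes. No pump gene was lower at an unadjusted p under 0.05 in edgeR or DESeq2. Atp6v1c2 stood at 1091, 1020, 1338 and 1110 CPM in type B and 5.331, 5.618, 9.919 and 8.411 CPM in principal nuclei (log2 7.31, adjusted p 2.77e-13). Atp6v1g3 (log2 7.11) and Atp6v0d2 (7.07) were nearly as far apart, while Atp6v1a (1.78) and Atp6v1b1 (2.23) differed less. The promoters of Atp6v1c2 and Atp6v1g3, the most type-restricted of these subunits, and of Atp6v1b1, a known target of Foxi1, are given here from RefSeq (GRCm38.p6), as the 250 bases before the start of the gene, 5′ to 3′ on the strand of the gene. The windows are chr12:17324731-17324980 on the minus strand for Atp6v1c2, chr1:138273488-138273737 on the plus strand for Atp6v1g3 and chr6:83742767-83743016 on the plus strand for Atp6v1b1. Capitals mark the forkhead core TGTTTA or its reverse complement TAAACA.
Atp6v1c2: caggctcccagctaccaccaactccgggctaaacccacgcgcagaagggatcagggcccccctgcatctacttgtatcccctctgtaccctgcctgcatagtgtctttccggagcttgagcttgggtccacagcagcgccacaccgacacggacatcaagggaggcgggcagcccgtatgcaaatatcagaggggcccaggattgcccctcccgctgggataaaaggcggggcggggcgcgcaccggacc
Atp6v1g3: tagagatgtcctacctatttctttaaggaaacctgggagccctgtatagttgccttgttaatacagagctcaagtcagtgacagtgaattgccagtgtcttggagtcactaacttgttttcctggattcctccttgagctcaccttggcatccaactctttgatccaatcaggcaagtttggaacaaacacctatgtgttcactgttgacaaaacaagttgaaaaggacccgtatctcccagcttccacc
Atp6v1b1: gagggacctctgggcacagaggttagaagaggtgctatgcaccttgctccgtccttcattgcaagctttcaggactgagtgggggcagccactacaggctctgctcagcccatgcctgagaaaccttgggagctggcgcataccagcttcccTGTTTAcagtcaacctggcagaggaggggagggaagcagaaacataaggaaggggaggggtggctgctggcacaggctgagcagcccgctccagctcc
The Atp6v1b1 window held 1 match, its first base 98 bases before the start, and the other 2 windows held none. Across 32851 RefSeq promoter windows of this length, 12.03% held the core, and among the 21 windows of 18 pump genes found there only 1 did. A match is a run of letters and no evidence of binding.

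Other lists held calls in both directions, beside 8.43% higher and 10.4% lower among all genes tested. Of the tested members, 4 transcription factors were higher and 10 lower of 20, 2 and 3 of 9 for carbonic anhydrases and ammonia, 2 and 5 of 13 for Notch, 9 and 8 of 27 for receptors, and 5 and 4 of 16 for anion and bicarbonate transport. Foxi1 stood at 58.95, 254.9, 84.78 and 66.44 CPM in type B and at 0 to 3.306 CPM in principal nuclei (log2 6.19, adjusted p 2.75e-08), so the types did not overlap. Car12 (log2 4.38), Oxgr1 (4.57), Sctr (6.34), the vasopressin receptor gene Avpr1a (4.87), Clnk (5.53), Jag1 (2.54) and the Notch ligand gene Dll1 (2.28) were higher. Bsnd, a chloride channel subunit gene (1.68), was higher too, as were the calcium release channel gene Itpr2 (2.14) and the metabolic regulators Esrra (1.11), Esrrg (0.92) and Ppargc1b (1.16). The receptor gene Notch2 (-1.50) and the target gene Hes1 (-0.91) were lower in type B.

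Principal cell genes outside the rule were lower in type B: 10 of 10 tested, beside 10.4% of all genes tested. The principal nuclei were picked by other genes of the same cell, so this direction follows from the choice and only describes the nuclei. Aqp4, the basolateral water channel, stood at 5.529 to 16.16 CPM in type B and 93.28 to 318.6 CPM in principal nuclei (log2 -4.37), and the vasopressin receptor gene Avpr2 had log2 -3.20. Hsd11b2, the enzyme that shields the mineralocorticoid receptor from glucocorticoids, stood at 30.42, 17.73, 9.215 and 10.77 CPM in type B and 379.8, 155.7, 249.3 and 189 CPM in principal nuclei (log2 -3.86, adjusted p 4.98e-09). The mineralocorticoid receptor gene Nr3c2 itself stood at 1055 to 1511 CPM against 1014 to 1846 CPM and was not called (log2 -0.26, SE 0.114, adjusted p 0.138). Its target gene Sgk1 was lower (log2 -1.87). Kcnh5, a potassium channel gene (log2 -6.57), Col26a1 (-5.12), Spock3 (-4.95), Styk1 (-4.50), Dab1 (-4.07), Fanca (-4.02), the collecting duct factor gene Elf5, Mcoln3 (-3.98) and Mgat4c (-3.76) were also named on this side by the same rule. Slc4a8 was lower in type B than in principal nuclei (log2 -1.96, adjusted p 0.00114).

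The effect of losartan within type B nuclei was tested over the 4 library sums of 539242, 454707, 575694 and 570418 UMIs. Of 8080 genes tested by edgeR, 2 (0.0248%) were called, both higher with losartan, and none (0%) was lower. A further view of the same genes is that 35.4% had libraries that did not overlap between the groups, 17.3% with losartan higher and 18.1% with losartan lower. An unadjusted p under 0.05 was reached by 479 genes, and DESeq2 called 6, among them the same 2 genes. This count moved widely with the processing, from 0 to 183 calls.

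Kap, an androgen-responsive transcript of the proximal tubule on chromosome 6 (133849851-133853762, minus strand), stood at 582.8 and 444.1 CPM untreated and at 2215 and 1970 CPM with losartan (log2 2.02, SE 0.205, adjusted p 0.0260). Both losartan libraries were far above both untreated libraries. Kap also differed in all nuclei outside type B, where unscaled levels were 1166 and 899.8 CPM untreated and 2783 and 2565 CPM with losartan. After thinning, Kap was found in 66.94%, 56.76%, 99.26% and 95.56% of type B nuclei and in 75.92%, 69.9%, 97.86% and 97.22% of all other nuclei, and before thinning Kap was in at least 87.1% of either set in every library. Its level in type B thus moved with its level in the rest of each library, and its part as free RNA in the droplets was not tested.

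Nrxn3, a presynaptic adhesion gene on chromosome 12 (88722876-90334935, plus strand), stood at 77.2 and 87 CPM untreated and at 317.3 and 358.5 CPM with losartan (log2 2.04, SE 0.196, adjusted p 0.0260). Outside type B its unscaled levels were 214.2 and 126.2 CPM untreated and 114.3 and 168.2 CPM with losartan, so the groups overlapped there. Gm37980 and Gm27313 lie in Nrxn3 on the opposite strand, and whether counting used strand is not stated. The type B UMIs came from few nuclei: 11 of 129, 8 of 74, 18 of 135 and 19 of 135 had any. The 5 richest nuclei held 82.5%, 89.47%, 88.24% and 75.51% of the Nrxn3 UMIs. The Nrxn3 call was lost with at least 3 selection genes required (log2 1.89, adjusted p 0.118). Without the 10% of nuclei richest in transcripts of other types neither gene was called, at log2 2.12 and adjusted p 0.233 for Nrxn3 and log2 1.99 and adjusted p 0.0715 for Kap.

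The other genes with the smallest p in each direction did not pass edgeR's test, while DESeq2 called Kcnip4 (adjusted p 2.01e-05), Nlgn1 (0.00416) and Egf (0.0170) among them. Pex5l had no UMI in untreated type B nuclei and stood at 29.86 and 31.09 CPM with losartan, at least 9.54-fold higher, from 33 UMIs in all (adjusted p 0.247). Clnk stood at 140.9 and 119 CPM untreated and 289.3 and 270.7 CPM with losartan (log2 1.10, adjusted p 0.247). Egf, a growth factor of the thick limb and distal tubule, stood at 457.4 and 322.8 CPM against 1079 and 834.1 CPM (log2 1.29, adjusted p 0.247). Egf showed the same order outside type B, at 910 and 611.5 CPM untreated and 1317 and 1420 CPM with losartan, whereas Clnk stood there at 20.6 and 23.76 CPM untreated and 13.28 and 16.12 CPM with losartan.

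On the lower side the synaptic adhesion gene Nlgn1 stood at 341.6 and 190 CPM untreated and 74.65 and 56.7 CPM with losartan (log2 -2.02, adjusted p 0.247). Kcnip4, a potassium channel partner, stood at 135.1 and 361.7 CPM against 31.73 and 27.44 CPM (log2 -3.05), and Mgat4c at 100.4 and 82.42 CPM against 16.8 and 18.29 CPM (log2 -2.37, adjusted p 0.178). Aldh1l2, a mitochondrial folate enzyme gene, stood at 131.2 and 132.8 CPM against 22.4 and 43.9 CPM (log2 -1.98), and Srgap1 at 185.3 and 121.3 CPM against 50.39 and 47.56 CPM (log2 -1.65). In each of these 5 genes, picked by small p, the groups did not overlap, as in 18.1% of all genes tested with losartan lower. Few nuclei carried the values of Kcnip4, where 1 nucleus held 51 of 70 UMIs in untreated 1 and 115 of 158 in untreated 2. The 5 richest nuclei held 76.92% and 100% of the untreated Mgat4c UMIs, and 53.11% and 86.75% of those of Nlgn1. Aldh1l2 was spread over 35 and 23 untreated nuclei against 11 and 17 with losartan. Outside type B, Nlgn1, Kcnip4, Mgat4c and Srgap1 were also lower in both losartan libraries than in both untreated ones, while Aldh1l2 stood at only 1.519 to 1.975 CPM in any library.

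**Figure D4:**
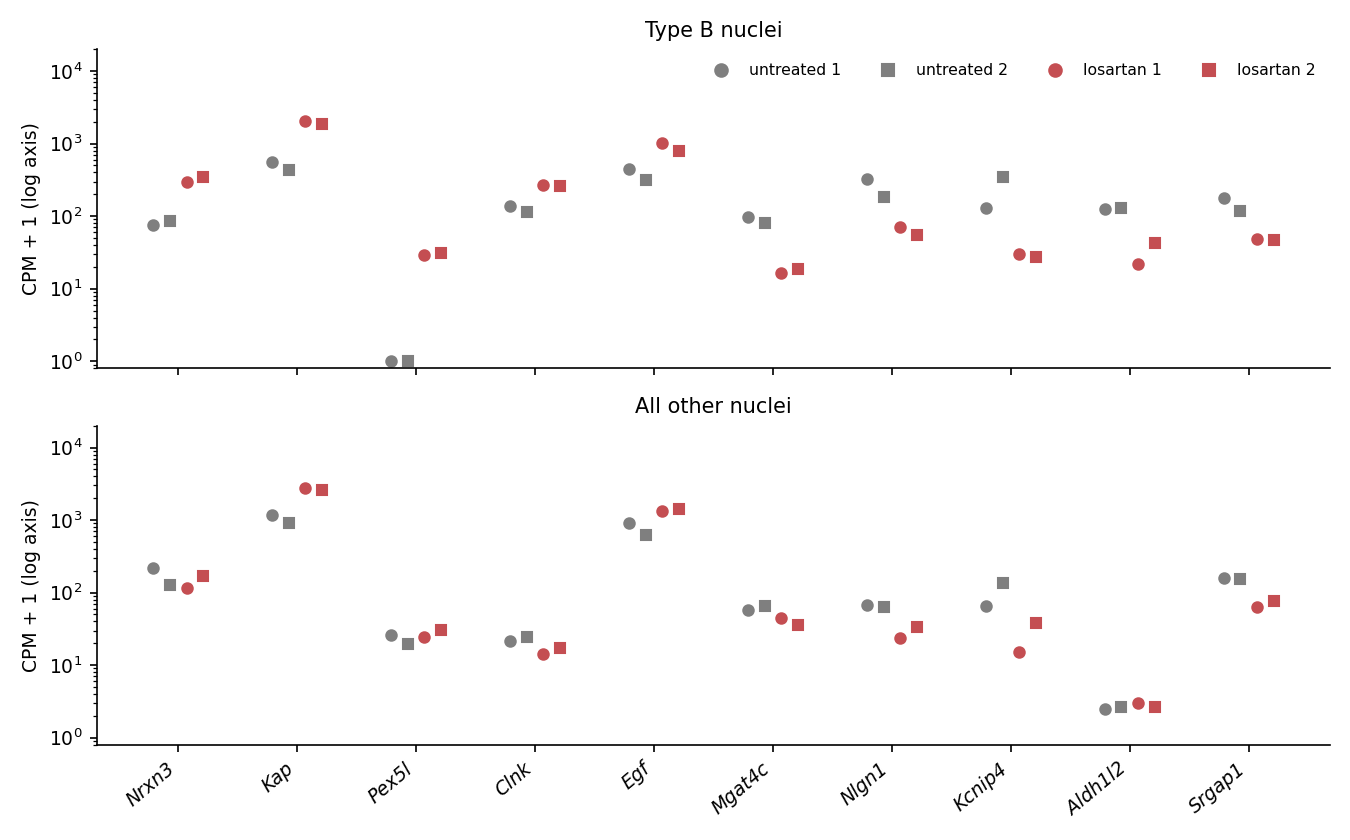
CPM plus 1 on a log axis of the 10 genes with the smallest p under losartan, summed over type B nuclei (top) and over all other nuclei (bottom) of each library. Grey symbols are untreated and red symbols losartan libraries. Kap is higher with losartan in both panels, Nrxn3 only in the type B panel, and Pex5l is at 0 CPM in the untreated type B nuclei (plotted at 1).

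The acid-base genes of type B nuclei showed few differences between the groups. None of 22 tested pump genes was called (median log2 -0.029 beside -0.007 over all genes tested; 2 lower at an unadjusted p under 0.05 in edgeR, 0 in DESeq2). Atp6v1b1 stood at 337.7 and 382.3 CPM untreated and 474 and 340.2 CPM with losartan, and Atp6v0d2 at 1185 and 1124 CPM against 1347 and 1145 CPM. Of 14 anion and bicarbonate transporters tested, none was called by edgeR or DESeq2, and 1 in each direction had an unadjusted p under 0.05 in edgeR. The cotransporter gene Slc12a2 stood at 23.2 and 25.2 CPM untreated and at 72.8 and 67.7 CPM with losartan (log2 1.53, adjusted p 0.330). Car12 stood at 1469 and 1319 CPM against 1209 and 1035 CPM (log2 -0.31). The selection genes are given for description only: the unscaled level of Slc26a4 was 4636 and 4629 CPM untreated and 7419 and 5235 CPM with losartan, and that of Slc4a9 was 2776 and 2369 CPM against 3201 and 2567 CPM.

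Of the renin-angiotensin genes, 6 of 15 were tested and none was called, with 1 higher at an unadjusted p under 0.05 in edgeR and in DESeq2. The gene of the receptor that losartan blocks, Agtr1a, stood at 29 and 16 CPM untreated and at 61.6 and 139 CPM with losartan (log2 2.12, adjusted p 0.383). Both losartan libraries were above both untreated ones, on 131 UMIs in all, as in 17.3% of all genes tested. These UMIs came from 10, 5, 17 and 17 type B nuclei, and the 5 richest held 66.67%, 100%, 51.52% and 64.47% of them. Outside type B, Agtr1a stood at 84.68 and 77.33 CPM untreated and at 88.26 and 118 CPM with losartan. Nr3c2 stood at 1289 and 1090 CPM untreated and 1530 and 1249 CPM with losartan and was not called.

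No tubule injury gene passed the test with losartan. Of 19 injury genes 10 passed the filter and 9 were not tested, and the 10 had a log2 below 0 with a median of -0.829. None was called by edgeR or DESeq2, with 5 at an unadjusted p under 0.05 in edgeR and 4 in DESeq2. Leaving out 1 library changed this: 4 members were called lower without untreated 1, 2 without untreated 2, 1 without losartan 1 and 3 without losartan 2. Without untreated 2, 2 of 10 tested members were above 0 and the median was -0.450. Vcam1, an adhesion molecule of injured tubule, stood at 102.3 and 52.7 CPM untreated and 9.3 and 20.1 CPM with losartan (log2 -2.39, adjusted p 0.33), but 1 nucleus held 46 of the 53 Vcam1 UMIs of untreated 1 and 5 nuclei held 91.3% in untreated 2. Spp1, osteopontin, stood at 368.6 and 615.9 CPM against 194.1 and 318.3 CPM (log2 -0.94), and Clu, clusterin, at 46.3 and 91.6 CPM against 26.1 and 29.3 CPM (log2 -1.29). In 5 of the 10 genes the losartan libraries were below both untreated ones, beside 18.1% of all genes tested. Spp1 was also lower outside type B: its unscaled level was 394.8 and 659.2 CPM untreated and 165.4 and 186.6 CPM with losartan, and Spp1 was found after thinning in 43.55%, 62.16%, 25.19% and 37.04% of type B nuclei and 46.18%, 64.17%, 24.47% and 28.72% of all others. Before thinning the Spp1 shares were 42.22 to 87.84% and 43.47 to 85.94%. The part of RNA from other cells in these values was not tested.

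Markers of other cells were read in the type B sums under the same contrast, and only Kap among them was called by edgeR. DESeq2 also called Egf, a member of the thick limb list. Of 29 tested proximal tubule genes, 23 had a log2 above 0 with a median of 0.586, 1 was called (Kap), and 14 had both losartan libraries above both untreated ones, beside 17.3% of all genes tested. At an unadjusted p under 0.05, 11 were higher in edgeR and 8 in DESeq2, and 0 were lower. In the 76 type B nuclei with fewer than 3 UMIs of other types, the order turned. There 2 of 11 tested proximal genes had a log2 above 0, and the median was -0.664. The summed level of Slc34a1, Lrp2, Slc27a2 and Kap was 859.9 to 1391 CPM in untreated and 2581 to 2864 CPM in losartan type B nuclei, and 3709 to 5228 CPM and 7320 to 9329 CPM in all other nuclei. Of 10 endothelial genes 9 had a log2 above 0 and none was called (1 higher at an unadjusted p under 0.05 in edgeR and in DESeq2). Of 4 tested podocyte genes none had a log2 above 0 (median -0.851), and of 8 tested principal cell genes 2 had (median -0.450). Among 28 respiratory chain genes none was called, none reached an unadjusted p under 0.05 in edgeR or DESeq2, and the median log2 was 0.005. None of 14 clock genes was called by edgeR or DESeq2 (2 higher and 1 lower at an unadjusted p under 0.05 in edgeR, 0 in DESeq2). The clock output genes Dbp (17.4 and 11.4 CPM against 41.1 and 38.4 CPM) and Nr1d1 (15.4 and 16 CPM against 29.9 and 29.3 CPM) had groups that did not overlap. In all 6 higher and 1 lower of the 14 had such groups, beside 17.3% and 18.1% of all genes tested.

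**Figure D5:**
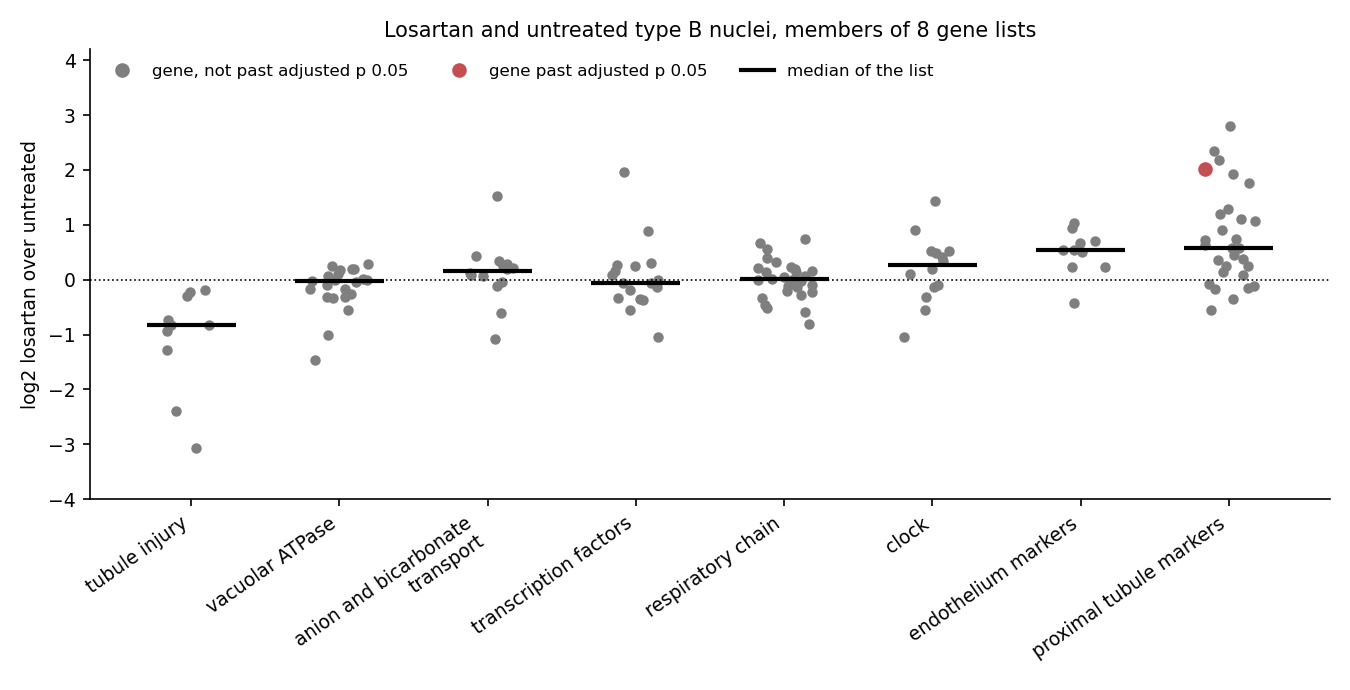
Log2 of losartan over untreated in type B nuclei for the tested members of 8 gene lists. Each point is a gene, red marks a gene past adjusted p 0.05 (Kap), black bars are list medians and the dotted line is the median of all genes tested (-0.007). Injury genes lie below 0 with a median of -0.829, pump and respiratory chain genes lie around 0, and proximal tubule markers lie mostly above 0.

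Whether losartan acted differently on type B and type A nuclei was tested as an interaction with library as a block. Of 8430 genes, none (0%) was called by edgeR and 406 had an unadjusted p under 0.05. By DESeq2 0 genes were called and 49 passed the unadjusted threshold. Among the genes with the smallest p on the side of type B, Oxgr1 stood at 315.1 and 264.1 CPM untreated and 476.2 and 371.7 CPM with losartan in type B, and at 240.7 and 231.6 CPM against 128.2 and 130.8 CPM in type A (log2 of the difference 1.39, adjusted p 0.349). Egfem1 had log2 3.52 (adjusted p 0.349), with 146 of its 166 UMIs in the type B sum of losartan 2 in 1 nucleus. On the other side were Sgms2 (log2 -1.67), Slc12a3 (-1.50) and Pde10a (-2.60), each with an adjusted p of 0.246. In each library the 5 richest type B nuclei held 42.19 to 67.72% of the Sgms2 UMIs. For Slc12a3 these shares were 66.3 to 91.03%, and for Pde10a 59.55 to 72%. The losartan type A sums held only 29 and 37 nuclei, which limits what this comparison can show.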

How the data were processed

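Each library is a table of UMI counts per gene and barcode, which the authors deposited after Cell Ranger 5.0.0, per the file headers. Bowtie 0.12.2 and mm10, a mouse genome build, are listed per the submitters' processing notes with no role given, and whether counting used strand is not given in the sources used here. Kidneys were flash-frozen and nuclei isolated with a kit for droplet sequencing, per the labels' protocols. Type B, type A and principal nuclei were chosen by the UMI rules given above, and counts were summed per library and type. Sums were tested with edgeR 4.0.16 (quasi-likelihood test, TMM scaling, its default filter on low counts, Benjamini-Hochberg adjustment over all genes tested, called at adjusted p under 0.05), with DESeq2 1.42.0 as an alternative, in R 4.3.3. Shares were compared by exact permutation. Printed CPM are TMM-scaled, except where called unscaled or summed over markers. The same fits were tested on simulated data. Selection genes were left out of the counts of calls between types. Named genes were those with the largest differences or smallest p by a written rule, plus members of 27 gene lists. The members and lists were chosen with earlier results of these data known. Same-numbered libraries of the groups did not deviate together (correlation 0.01889 over 8080 genes), so the fit of losartan carries no block. Chromosome positions are from the GENCODE annotation of GRCm38, and promoter sequences from RefSeq. Alternatives were other marker and contamination limits, no filter on low counts, DESeq2, the block and leaving out each library; leaving out the 10% of nuclei richest in UMIs of other types and the wider type A rule were chosen after seeing the data. Some results for single genes are not reported here.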

Additional observations from a re-analysis of the deposited data

How the results depend on the processing

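The number of genes called under losartan in type B nuclei depended on the processing. Beside the 2 genes reported, 137 were called with no filter on low counts, 6 by DESeq2, 3 with at least 3 selection genes required, 15 in the 76 nuclei with fewer than 3 UMIs of other types, and 0 by edgeR without the 10% of nuclei richest in such UMIs (406 at an unadjusted p under 0.05). Leaving out each library gave 59 to 183 calls, with the most without untreated replicate 1, and Nrxn3 and Kap were called in each. With the replicate number as a block 36 genes were called, Nrxn3 and Kap among them, with the other 8 genes named for losartan, the injury genes Spp1, Dcdc2a and Vcam1, and Agtr1a; the numbers do not pair these libraries. The cause of these moves was not tested. Between type B and type A, DESeq2 called 371 genes, all among the 748, and the nuclei with few other UMIs gave 339. The wider type A rule gave 1868, with 506 of them among the 748. Against principal cells DESeq2 called 1254 genes and the nuclei with few other UMIs gave 1090. With no library block the type comparisons gave 589 and 1532 calls. The interaction gave 10 calls with no filter, 8 with at least 3 selection genes, 3 in the nuclei with few other UMIs, 1 without the richest 10%, 1 with the wider type A rule, and 2 to 12 when a library was left out. The difference in the share of type B nuclei ran from -0.04555 to 0.6073 percentage points when a library was left out, negative without untreated replicate 2, and that in the type B share of intercalated nuclei from 23.07 to 34.72. Depth limits rare transcripts: the type A sums held 112487 to 382650 UMIs.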
